A study of Mus musculus with 16 samples.

Results

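Arc, the 3 Homer genes and the Polo-like kinases Plk2 and Plk3 were followed in primary mouse hippocampal cultures in which network activity was raised with bicuculline. The 6 genes were taken by name from the 55385 genes of each table, and all 6 had enough counts to be tested. Each of the 16 libraries came from a culture infected with a recombinant adeno-associated virus that carries a hairpin RNA under the U6 promoter and GFP under the chicken beta-actin promoter. The hairpin was either a control (shControl) or directed against Dnmt3a1 (shDnmt3a1), the long form of the DNA methyltransferase Dnmt3a. Cultures were harvested at 0h, without bicuculline, or at 4h of bicuculline, which blocks GABA-A receptors, and each of the 4 groups has 4 libraries from separate neuronal preparations. The cultures were unsorted and only 1 hairpin against Dnmt3a1 was sequenced, so no second hairpin stands beside it.

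These genes act at the excitatory synapse. Homer proteins are scaffolds that bind group I metabotropic glutamate receptors, Shank proteins and IP3 and ryanodine receptors. Long Homer forms pair through a coiled coil and so tie these partners together, whereas the short form Homer1a keeps the binding domain, lacks the coiled coil and is made when neurons are active. Arc is an immediate early gene whose protein joins the endocytic machinery to remove AMPA receptors from the synapse. Plk2 is an activity-induced kinase that phosphorylates regulators of Ras and Rap and lowers the number of strong synapses during prolonged activity, and Plk3 is a related kinase first described as an immediate early gene.

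In GENCODE release M21 on GRCm38, Arc (ENSMUSG00000022602.14) is encoded on chromosome 15, minus strand, at 74669083 to 74672570. Homer1 (ENSMUSG00000007617.18) is on chromosome 13, plus strand, at 93299635 to 93405129, with 12 transcripts in the annotation. Homer2 (ENSMUSG00000025813.14) is on chromosome 7, minus strand, at 81600481 to 81707527, and Homer3 (ENSMUSG00000003573.15) is on chromosome 8, plus strand, at 70282827 to 70294361. Plk2 (ENSMUSG00000021701.8) is on chromosome 13, plus strand, at 110395046 to 110400844, and Plk3 (ENSMUSG00000028680.14) is on chromosome 4, minus strand, at 117128655 to 117133963. The end of Homer3 overlaps Ddx49 on the opposite strand, which held 525 to 887 counts per library. Whether strand was used in the counting is not given in the sources used here, so reads in that overlap cannot be assigned with certainty.

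The short Homer1 form of 186 codons and a long form of 354 codons share their first 527 coding bases and then part. The short form has 5 exons and ends in an exon at chromosome 13 from 93355940 to 93360462. The form of 354 codons splices on to further exons and ends in 1 that starts at 93402041. A further long form, of 370 codons, was not compared. The coding bases around that point are shown because they are what tells the forms apart, with 30 shared bases in lower case and the bases after the forms part in capitals.
Homer1, 186 codons: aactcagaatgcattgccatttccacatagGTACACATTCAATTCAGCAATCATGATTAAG
Homer1, 354 codons: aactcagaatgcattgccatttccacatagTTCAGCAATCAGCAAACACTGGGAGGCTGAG

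RefSeq promoter windows on GRCm38.p6 were found for 5 of the 6 genes, 7 windows in all, and Arc was not matched. The 250 bases before each annotated start were searched on both strands for TGACGT and for TGACGTCA, the core and the full cAMP response element, and also for the TATA motif TATAAA, the E-box motif CACGTG and the CArG box. TGACGT was present in the windows of Homer1, Plk2 and Plk3 shown here in capitals, and in 6.47% of 32851 promoter windows of the same length. A match of letters is a description of the window and not evidence of binding.
Homer1, chr13:93303507-93303756, plus strand: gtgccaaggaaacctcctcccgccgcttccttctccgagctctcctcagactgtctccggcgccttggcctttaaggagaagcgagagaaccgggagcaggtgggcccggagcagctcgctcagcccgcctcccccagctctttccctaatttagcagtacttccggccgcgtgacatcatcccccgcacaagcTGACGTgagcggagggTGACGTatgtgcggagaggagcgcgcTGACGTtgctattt
Plk2, chr13:110394794-110395043, plus strand: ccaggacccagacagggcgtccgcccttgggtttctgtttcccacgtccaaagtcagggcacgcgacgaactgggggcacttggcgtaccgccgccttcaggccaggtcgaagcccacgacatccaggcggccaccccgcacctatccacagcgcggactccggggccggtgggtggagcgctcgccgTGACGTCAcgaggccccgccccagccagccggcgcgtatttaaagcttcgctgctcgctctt
Plk3, chr4:117133964-117134213, minus strand: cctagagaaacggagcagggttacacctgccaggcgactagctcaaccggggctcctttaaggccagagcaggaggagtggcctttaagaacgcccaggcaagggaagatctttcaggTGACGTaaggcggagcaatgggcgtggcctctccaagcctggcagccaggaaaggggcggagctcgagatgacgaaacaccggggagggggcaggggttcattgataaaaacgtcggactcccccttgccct

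The Homer1 window held 3 copies of TGACGT, which begin 56, 40 and 14 bases before the start. In release M21 a transcript of 193 codons begins right after this window, at 93303757. The transcripts of 186 and 354 codons begin further on, at 93304495 and 93305159. The Plk2 window held the full TGACGTCA from 62 to 55 bases before the start, as did 1.55% of all windows, and its palindrome gives the core on both strands. The Plk3 window held 1 copy from 132 to 127 bases before the start. A further Homer1 window, both Homer2 windows and the Homer3 window held no TGACGT. The CArG box, found in 1.47% of all windows, and CACGTG, found in 6.02%, were in none of the 7 windows, and TATAAA, found in 12.4%, was in 1 window of Homer2.

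The libraries held 28912697 to 29586355 counted pairs, and levels are given as TMM-normalized CPM, in which counts are rescaled so that libraries can be compared, with the SD of the 4 libraries of a group. Dnmt3a stood at 312 ± 13.8 CPM in shControl and 44.5 ± 3.66 CPM in shDnmt3a1 at 0h, and at 327 ± 11.8 and 45.3 ± 1.72 CPM at 4h, so the libraries followed their labels. Summed neuronal markers (Rbfox3, Tubb3, Map2, Snap25, Syt1) lay between 4614 and 6190 CPM in every library and the 5 astrocyte markers between 657 and 974 CPM, while the 5 microglial markers summed to 4.35 CPM at most and the 4 proliferation markers to 1.57 CPM at most. The 4 GABAergic markers summed to 1999 to 2383 CPM at 0h and 2893 to 3244 CPM at 4h in shControl, and to 1831 to 2125 and 2571 to 3065 CPM in shDnmt3a1. The 5 excitatory markers summed to 2226 to 2473 CPM at 0h and 2342 to 2606 CPM at 4h in shControl. In shDnmt3a1 they summed to 1988 to 2227 and 2076 to 2456 CPM. The 6 oligodendrocyte markers summed to between 96.3 and 219 CPM in every library. The part of these marker sets in the bicuculline and hairpin results was not tested. In such bulk samples fewer cells of a type and less RNA per cell cannot be told apart.

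The first question was how each gene responded to bicuculline in control cultures. In the 4 shControl libraries Arc, Homer1, Plk2 and Plk3 rose and Homer2 and Homer3 did not pass the thresholds, which were 0.05 for the adjusted p and 0.5 for the size of the log2 fold change. These 4 of 6 compare with 10.8% of the 17222 tested genes called higher and 11.1% called lower. The same 4 genes rose in shDnmt3a1, where 12.6% of tested genes were called higher and 13.2% lower. For each of the 4 the libraries of 0h and 4h did not overlap in either hairpin, as was so for 39.7% of tested genes in shControl and 40.4% in shDnmt3a1.

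**Figure D1:**
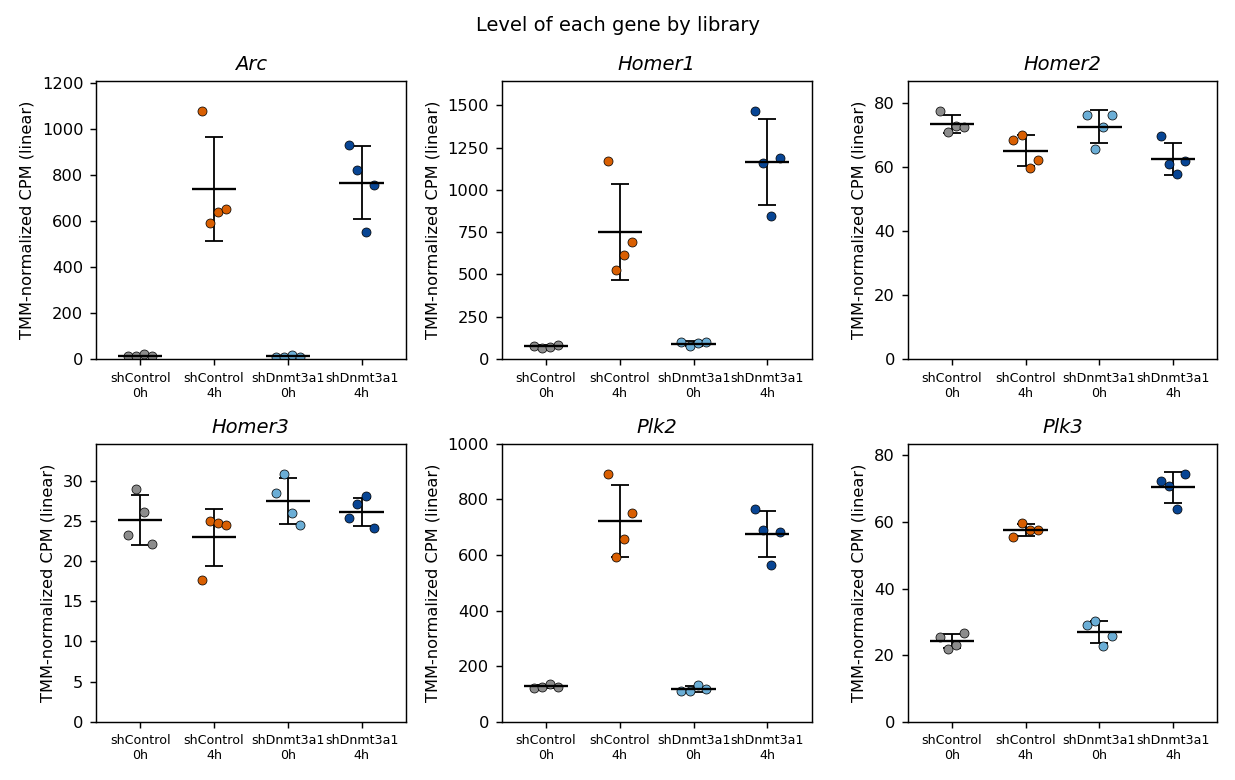
TMM-normalized CPM of each gene (vertical axes, linear and from 0) in the 16 libraries by group (horizontal axes). Points are libraries in order of replicate number, the horizontal lines are group means and the bars are SD (n = 4). Arc, Homer1, Plk2 and Plk3 are higher in every 4h library than in every 0h library of the same hairpin.

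Arc, which removes AMPA receptors from the synapse, was the lowest of the 6 genes per length at 0h, with 14.7, 12.2, 20.05 and 12.3 CPM in the shControl libraries. With bicuculline it reached 1080, 590, 638 and 652 CPM. The first of these libraries stood well above the other 3, and the groups were far apart. In the edgeR quasi-likelihood test with Benjamini-Hochberg adjustment the log2 fold change was 5.64 (SE 0.27, adjusted p = 3.14e-11), a 49.9-fold rise. It was the 19th largest rise of 17222 tested genes.

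In shDnmt3a1, Arc went from 8.22, 9.58, 16.4 and 10.8 CPM to 931, 821, 554 and 758 CPM. Of the 4 libraries with bicuculline, 3 lay within the range of shControl with bicuculline and 1 lay below it. The log2 fold change was 6.08 (SE 0.27, edgeR adjusted p = 1.27e-11), which placed Arc 23rd among tested genes.

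Homer1 was expressed at 79.7, 63.2, 71.2 and 82.4 CPM in shControl at 0h and at 1169, 528, 617 and 691 CPM with bicuculline. As with Arc, the first bicuculline library was the highest. The log2 fold change was 3.34 (SE 0.22, edgeR adjusted p = 1.92e-09), a 10.1-fold rise. In shDnmt3a1 the gene stood at 99.9, 74.4, 92.8 and 99.9996 CPM at 0h and at 1467, 1161, 843 and 1188 CPM with bicuculline. The log2 fold change there was 3.67 (SE 0.22, edgeR adjusted p = 5.16e-10), a 12.7-fold rise.

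The other scaffolds of the family did not follow Homer1. Homer2 had 70.9 to 77.7 CPM in shControl at 0h and 59.7 to 70.1 CPM with bicuculline, a log2 difference of -0.17 (SE 0.07, edgeR adjusted p = 0.0588). These groups did not overlap either, as was so for 39.7% of tested genes. In shDnmt3a1 it had 65.6 to 76.5 and 58.0 to 69.8 CPM, and the log2 difference of -0.21 (SE 0.07, edgeR adjusted p = 0.0194) was past the p threshold, as was so for 46.0% of tested genes, and under the fold threshold. Homer3 had 22.1 to 28.96 CPM in shControl at 0h and 17.6 to 25.0 CPM with bicuculline, with overlapping groups and a log2 difference of -0.13 (SE 0.11, 95% interval -0.35 to 0.09). In shDnmt3a1 its difference was -0.07 (SE 0.11, 95% interval -0.29 to 0.15).

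Plk2, the kinase that acts on spine regulators, had 122, 125, 135 and 127 CPM in shControl at 0h. With bicuculline it had 893, 592, 656 and 750 CPM, a log2 fold change of 2.51 (SE 0.12, edgeR adjusted p = 2.26e-11). In shDnmt3a1 it went from 110, 112, 133 and 117 CPM to 766, 690, 563 and 682 CPM, again with a log2 fold change of 2.51 (SE 0.12, edgeR adjusted p = 1.65e-11). The estimates correspond to 5.68-fold and 5.72-fold rises.

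Plk3 had a smaller response from a lower level. It stood at 25.6, 22.0, 23.1 and 26.6 CPM in shControl at 0h and at 55.5, 59.7, 57.6 and 57.6 CPM with bicuculline, and the 4 bicuculline libraries were close to each other. The log2 fold change was 1.24 (SE 0.08, edgeR adjusted p = 2.93e-09), or 2.37-fold. In shDnmt3a1 Plk3 had 29.1, 30.2, 22.9 and 25.6 CPM at 0h and 72.3, 70.8, 63.8 and 74.6 CPM with bicuculline, a log2 fold change of 1.39 (SE 0.08, edgeR adjusted p = 5.38e-10).

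**Figure D2:**
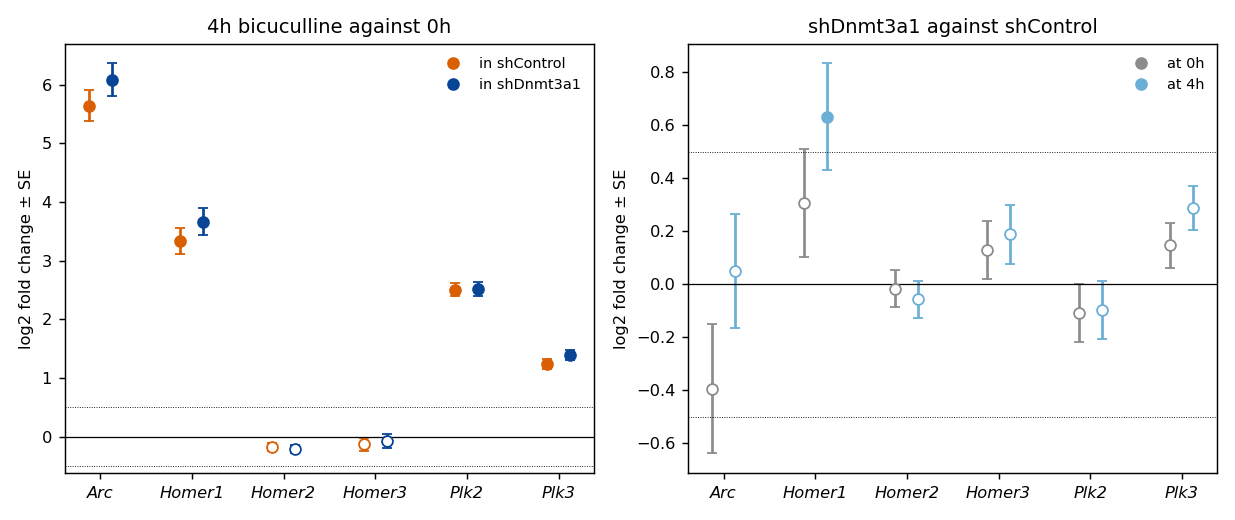
log2 fold change (vertical axes, bars are SE of the edgeR fit) of each gene (horizontal axes) for bicuculline against 0h on the left and shDnmt3a1 against shControl on the right, on different scales. Filled points passed both thresholds, open points did not, and dotted lines mark a log2 change of 0.5 in either direction. On the right 1 point is filled, Homer1 at 4h with 0.63.

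On the TPM scale, which is per transcript length and allows genes to be compared, the order of levels changed with bicuculline. In shControl at 0h Plk2 was first with 93.4 to 116 TPM and Homer1 followed with 41.3 to 51.5 TPM. Homer3 (23.3 to 31.5 TPM), Homer2 (22.6 to 26.1 TPM) and Plk3 (21.1 to 25.1 TPM) overlapped each other, and Arc was last with 8.85 to 15.5 TPM. With bicuculline Plk2 (418 to 579 TPM), Arc (373 to 631 TPM) and Homer1 (219 to 430 TPM) came first, each overlapping the next in order. Plk3 followed with 42.5 to 49.9 TPM, and Homer3 (15.9 to 24.1 TPM) and Homer2 (18.2 to 20.1 TPM) overlapped at the end. In shDnmt3a1 with bicuculline Arc (352 to 506 TPM), Plk2 (402 to 464 TPM) and Homer1 (334 to 489 TPM) came first and overlapped each other.

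Homer1 made up a larger part of all Homer RNA with bicuculline. In shControl its share of the summed TPM of the 3 Homer genes was 49.9%, 44.1%, 45.7% and 51.8% at 0h and 92.7%, 83.7%, 85.8% and 86.8% with bicuculline. The means were 47.9% ± 3.58 and 87.2% ± 3.84, and the libraries of the conditions did not overlap. In shDnmt3a1 the means were 51.1% ± 3.30 and 90.9% ± 1.80. Plk2 already made up 81.7% ± 1.62 of the summed Plk2 and Plk3 TPM in shControl at 0h and 91.3% ± 1.59 with bicuculline, against 78.8% ± 3.43 and 89.1% ± 0.75 in shDnmt3a1.

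**Figure D3:**
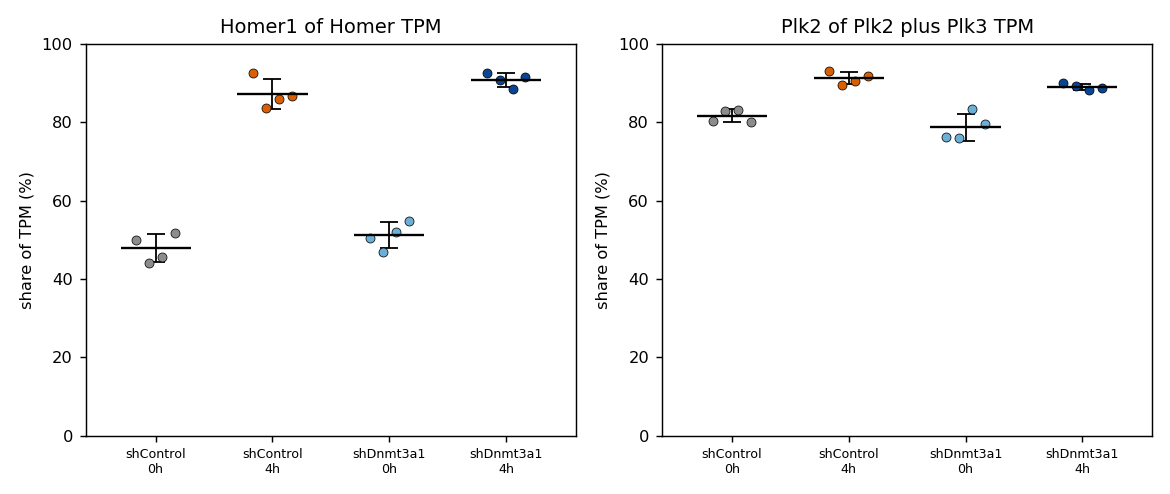
Share of TPM in percent (vertical axes, from 0) taken by Homer1 among the 3 Homer genes on the left and by Plk2 of Plk2 plus Plk3 on the right, by group (horizontal axes). Points are libraries in order of replicate number, lines are means and bars are SD (n = 4). The Homer1 share is between 44.1% and 54.9% in every 0h library and between 83.7% and 92.7% in every 4h library.

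The next question was which Homer1 RNA was counted. The tables give no transcripts, but the count of a gene divided by its TPM is proportional to the mean effective length of its RNA, which is the annotated length less a constant set by fragment size. On 786 genes with a single annotated transcript this constant was 183 to 198 nt depending on the library, and lengths were then given in nt for each gene. Arc, whose 2 transcripts of 3055 and 3054 nt differ by 1 base, stayed within 2857 to 2871 nt in all 16 libraries.

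Homer1 RNA became longer with bicuculline. In shControl its mean effective length was 3408, 3217, 3251 and 3283 nt at 0h and 4545, 4370, 4427 and 4425 nt with bicuculline. In shDnmt3a1 it was 3467, 3340, 3332 and 3431 nt at 0h and 4663, 4568, 4594 and 4581 nt with bicuculline. Every bicuculline library lay above every 0h library, and groups did not overlap for 15.9% of genes tested for length in shControl and 22.7% in shDnmt3a1. On log2 ratios the change was 0.45 (SE 0.02, limma adjusted p = 1.13e-08) in shControl and 0.46 (SE 0.02, limma adjusted p = 7.18e-09) in shDnmt3a1. Among 12441 genes with more than 1 transcript, 0.514% and 0.362% moved by as much or more towards longer RNA.

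In shControl Homer1 was the 1 member of 6 called for effective length, where 3.24% of genes were called. In shDnmt3a1 3 members were called, where 13.2% of genes were. The calls of Arc and Plk3 in shDnmt3a1 were log2 changes of 0.02 each, and both were lost when libraries were centred on single-transcript genes, where the changes were 7.15e-05 and 8.10e-05. Homer2 had group means of 6076 to 6544 nt and Homer3 of 1829 to 1946 nt, Plk2 of 2552 to 2573 nt and Plk3 of 2187 to 2190 nt.

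**Figure D4:**
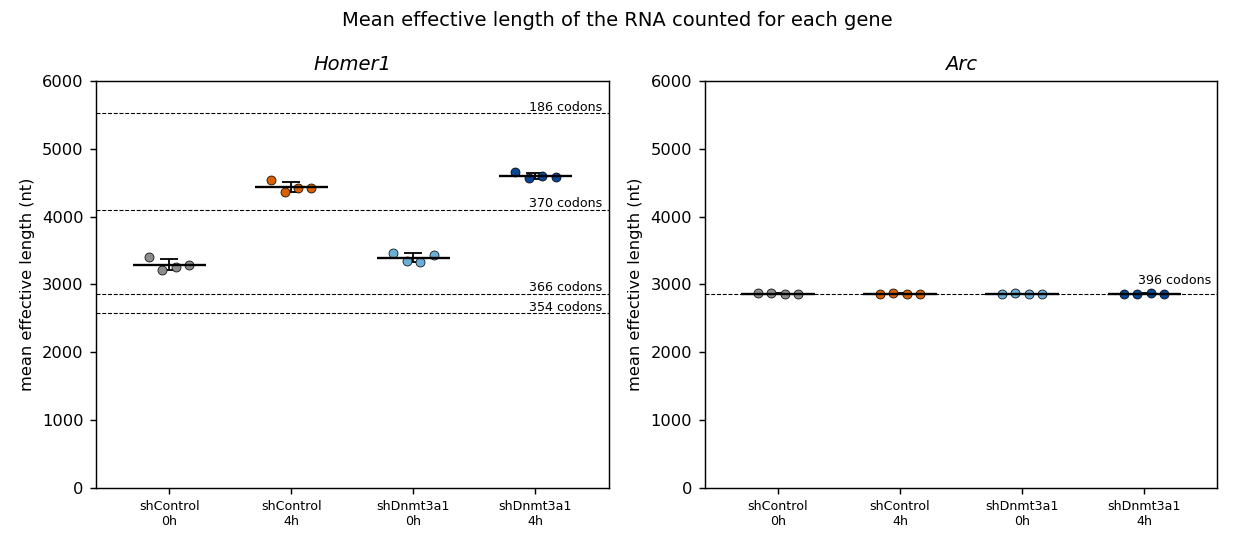
Mean effective length in nt (vertical axes, from 0) of Homer1 on the left and Arc on the right by group (horizontal axes). Points are libraries in order of replicate number, lines are means and bars are SD (n = 4), and dashed lines mark the effective length of the transcripts with the codon numbers given. Homer1 lies at 3217 to 3467 nt in the 0h libraries and at 4370 to 4663 nt in the 4h libraries, while Arc stays at 2857 to 2871 nt.

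The annotation places these lengths. The transcript of 186 codons, although it encodes a short protein, is the longest Homer1 RNA at 5713 nt, of which 4352 nt are 3′ UTR. The next in length has 370 codons and 4287 nt, followed by that of 366 codons at 3052 nt and that of 354 codons at 2765 nt. A mean above the effective length of the 370-codon transcript, 4089 to 4104 nt depending on the library, needs some of the 186-codon transcript if the authors' index held the transcripts of release M21, and the release is not given in the sources used here. Under that condition the 186-codon transcript made up at least 31.5%, 19.0%, 23.3% and 23.5% of Homer1 molecules in the shControl libraries with bicuculline. In the shDnmt3a1 libraries with bicuculline the lowest possible shares were 39.8%, 33.5%, 34.6% and 34.0%. At 0h the lengths set no such bound.

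The comparison of hairpins asks whether these genes differ when Dnmt3a1 is reduced. At 0h no member was called (0 of 6, where 5.83% of tested genes were called by edgeR). The lowest unadjusted p among the 6 was 0.0997, for Plk3. The log2 differences at 0h were -0.39 for Arc (95% interval -0.87 to 0.08), 0.31 for Homer1 (-0.09 to 0.71), -0.02 for Homer2 (-0.15 to 0.12), 0.13 for Homer3 (-0.09 to 0.35), -0.11 for Plk2 (-0.32 to 0.11) and 0.15 for Plk3 (-0.02 to 0.31).

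At 4h 1 of 6 members was called, Homer1, which was higher in shDnmt3a1. In this comparison 5.89% of tested genes were called. Its levels were 751 ± 286 CPM in shControl and 1165 ± 255 CPM in shDnmt3a1, and the groups overlapped because the highest shControl library, at 1169 CPM, was above 2 of the shDnmt3a1 libraries. The log2 difference was 0.63 (SE 0.20, edgeR adjusted p = 0.0368). The call depended on single libraries and on the fit. It was kept in 8 of 11 alternative settings, among them a block for the replicate number and voom with limma. Over these 11 settings the log2 difference was 0.52 to 0.67. With 1 library left out at a time, the call was kept in 10 of 16 fits. These include every fit that left out a 0h library, which is not part of this comparison. Among fits that left out a 4h library it was kept only without replicate 1 of shControl or replicate 3 of shDnmt3a1. It was lost without any one of replicates 2, 3 and 4 of shControl with bicuculline and without replicates 1, 2 or 4 of shDnmt3a1 with bicuculline (log2 differences from 0.50 to 0.63), and with a fit of only the groups compared (0.63, edgeR adjusted p = 0.0910) or limma on log2(TPM + 1) (0.52, adjusted p = 0.0515). Without replicate 1 of shControl with bicuculline the difference was 0.92 and was called.

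Plk3 at 4h was also past the p threshold, as were 17.7% of tested genes, with 57.6 ± 1.71 CPM in shControl and 70.4 ± 4.62 CPM in shDnmt3a1, and the groups did not overlap, as was so for 20.9% of tested genes. Its log2 difference of 0.29 (SE 0.08, edgeR adjusted p = 0.0217) was under the fold threshold. Arc (0.05, 95% interval -0.37 to 0.47), Homer2 (-0.06, -0.20 to 0.08), Homer3 (0.19, -0.03 to 0.41) and Plk2 (-0.10, -0.31 to 0.12) were not called. The log2 change of Homer1 effective length between hairpins was 0.05 at 0h and 0.06 at 4h. At 4h every shDnmt3a1 library was longer than every shControl library, but the change was not called (SE 0.02, limma adjusted p = 0.173). Groups did not overlap, in either direction, for 14.1% of genes. With a block for the replicate number the same change was called (0.06, limma adjusted p = 0.0229), so the call depended on the fit. Without the block 0 of 6 members were called at either time, where 0.161% of genes were called at 0h and 0.145% at 4h. In an exact two-sided permutation test of this length alone, unadjusted, Homer1 at 4h gave p = 0.0286, the smallest that 4 against 4 libraries allow. Any gene whose groups do not overlap reaches this p, so it adds nothing to the lack of overlap.

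Whether bicuculline acted differently on a member in the 2 hairpins was tested as an interaction. The log2 interaction was 0.44 (SE 0.33) for Arc, 0.32 (SE 0.29) for Homer1, -0.04 for Homer2, 0.06 for Homer3, 0.01 for Plk2 and 0.14 (SE 0.12) for Plk3. None was called, and the lowest unadjusted p was 0.189, for Arc. Over all 17222 genes 0 were called by edgeR (852 at an unadjusted p under 0.05), 0 by voom with limma and 18 by DESeq2, none of them a member. The interaction of Homer1 effective length was 0.02 (SE 0.02, limma adjusted p = 0.906), where 1 gene of 12441 was called (0.00804%).

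Listed partners of these proteins were counted in the same way in shControl with bicuculline, where 10.8% of all tested genes were called higher and 11.1% lower. Of 15 Homer partners 0 were called higher, and the median log2 change was 0.04 beside 0.01 over all tested genes. Itpr3, an IP3 receptor of low level, was called lower and fell from 0.74 ± 0.04 to 0.31 ± 0.12 CPM, by a log2 change of -1.25 (edgeR adjusted p = 4.19e-04). Of 11 Arc partners 0 were called in either direction, with a median of 0.13. Of 8 Plk partners and other Plk genes 1 was called higher and 1 lower, shares near those over all tested genes. They were Rasgrf1, a Ras exchange factor, with 0.79, and Plk4, a centriole kinase, with -0.64, and both were named after their values were seen.

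Between hairpins, Ryr2, a ryanodine receptor among the Homer partners, was called lower in shDnmt3a1 at 0h with a log2 difference of -0.55 (SE 0.16, edgeR adjusted p = 0.0264), and at 4h its -0.47 was under the fold threshold. Over all tested genes 4.07% were called lower at 0h and 3.90% at 4h. Grm5, the metabotropic receptor mGluR5, was not called in either hairpin comparison. Its log2 differences of 0.37 at 0h and 0.29 at 4h were past the p threshold (edgeR adjusted p = 0.00751 and 0.0291) and under the fold threshold. Other Homer partners did the same in either direction, and all were named outside the rule for named genes. Itpr1, an IP3 receptor, was lower with -0.34 at 0h and at 4h (edgeR adjusted p = 0.0178 and 0.0194). Agap2 was higher with 0.17 at 0h (edgeR adjusted p = 0.0462). At 0h 2809 of 17222 tested genes were past the p threshold, and at 4h 17.7%.

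Dlg4, which encodes the postsynaptic scaffold PSD-95, was the 1 Arc partner of 11 called between hairpins. It was lower in shDnmt3a1 at 421 ± 17.5 against 671 ± 17.0 CPM at 0h and 464 ± 17.8 against 786 ± 47.8 CPM at 4h. The log2 differences were -0.67 (SE 0.05, edgeR adjusted p = 2.48e-07) and -0.76 (SE 0.05, edgeR adjusted p = 5.52e-08). No Plk partner was called between hairpins (0 of 8 at each time). Over all tested genes 5.83% were called at 0h and 5.89% at 4h, so these counts do not set lists of 11 and 8 apart.

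The libraries of a group also varied together. In shControl with bicuculline, replicate 1 was the highest of 4 for Arc, Homer1 and Plk2 and the lowest for Homer3, and in shDnmt3a1 with bicuculline replicate 1 was the highest and replicate 3 the lowest for Arc, Homer1 and Plk2. Over the 16 libraries the deviations of log2 CPM from the group means correlated with r = 0.86 between Arc and Plk2, 0.83 between Homer1 and Plk2 and 0.63 between Arc and Homer1. Between Homer1 and Homer3 r was -0.84, and between Arc and Plk3 it was -0.37. These values describe libraries that share depth, preparation and composition, and no p is given.

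**Figure D5:**
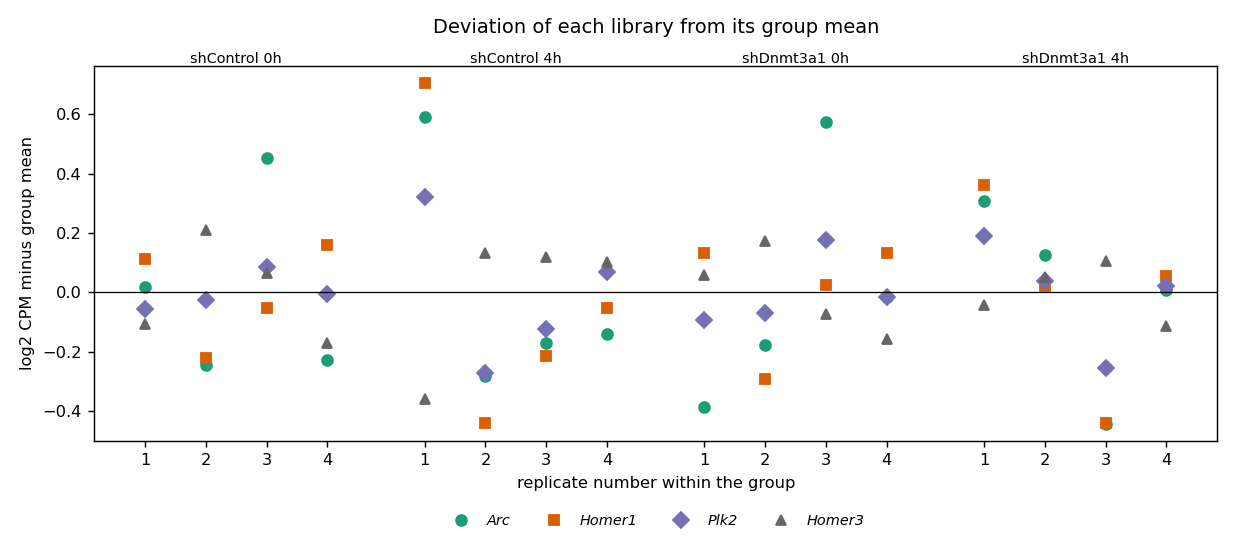
Deviation of log2 CPM from the mean of the group (vertical axis) for Arc, Homer1, Plk2 and Homer3 in each library (horizontal axis, replicate number within the 4 groups). In both groups with bicuculline the highest points for Arc, Homer1 and Plk2 belong to replicate 1.

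By the correlation of log2 CPM over the 16 libraries among the 13879 genes that averaged 1 CPM or more, the genes most like Arc were Plk2 (r = 0.997), Egr1 (0.997) and Sertad1 (0.997). Those most like Homer1 were Peli1, Zfand5 and Nedd9 (each 0.997), and those most like Plk2 were Sgk1, Arc and Penk (each 0.997). Dusp14 (0.992), Sap30 (0.991) and Erf (0.989) were most like Plk3. For the members without a bicuculline call the values were lower, with Lrrc40 (0.936), Ssrp1 (0.913) and Magee1 (0.911) most like Homer2 and Rcl1 (0.884), Adcyap1r1 (0.877) and Slc5a6 (0.865) most like Homer3. Using only the deviations from group means, Egr1 (0.928), Tars (0.891) and Itgb8 (0.875) were most like Arc, and Ptp4a1 (0.967), Ptk2 (0.958) and Ttc19 (0.950) most like Homer1. Ahcyl1 (0.947), Lamb3 (0.933) and Sgk1 (0.929) were most like Plk2, Aldh3b2 (0.838), Pcid2 (0.835) and Dtwd2 (0.816) most like Plk3, Ssrp1 (0.907), Sf3b2 (0.899) and Magee1 (0.879) most like Homer2, and Slc1a6 (0.910), Gpr45 (0.889) and Mpst (0.887) most like Homer3.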

How the data were processed

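RNA from primary mouse hippocampal cultures was sequenced in 16 libraries, 4 per combination of shControl or shDnmt3a1 with 0h or 4h of bicuculline. The authors trimmed paired-end reads with Trim Galore 0.6.4 and quantified them with kallisto (0.4.6 per the processing notes) on GRCm38.p6. For each library they deposited, per gene, an estimated count and its TPM, and replicates were not pooled. Without their version, 55144 of 55385 identifiers matched GENCODE M21, and 54487 with it.

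After rounding, counts were fitted in R 4.3.3 by edgeR 4.0.16 (TMM, factors 0.871 to 1.12, edgeR's filter, quasi-likelihood test, 1 fit of the 4 groups, no block). p-values were adjusted by Benjamini-Hochberg over 17222 genes. Calls needed an adjusted p under 0.05 and, except for the interaction, a log2 change of more than 0.5 either way. The authors used voom with limma, an alternative here with limma 3.58.1, as was DESeq2 1.42.0. Effective length was tested with limma on log2(count/TPM), centred per library on the median, for 12441 genes with at least 10 counts in every library and more than 1 annotated transcript, at an adjusted p under 0.05. Intervals are the estimate with its normal 95% range. Both tests were checked on simulated data.

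Named genes are the 6 members, Dnmt3a, genes of 3 partner lists called between hairpins or changed by over 1 (log2) with bicuculline in shControl, and per member the 3 most correlated genes. Grm5, Itpr1, Agap2, Rasgrf1 and Plk4 were named outside this rule. Results of 1 listed gene are not reported here. Members and lists were chosen with earlier results of these data known. Replicates differed by more than sampling noise (7.15 to 40.0 in chi-square over its degrees of freedom). Mitochondrial genes took 2.73% to 6.60% of counts. Deviations of same-numbered libraries correlated above 0.1 for every number between 0h and 4h in shControl (r 0.142 to 0.221) and between hairpins at 0h (0.204 to 0.355), so numbers were taken to pair there. For 1 number of 4 r was lower between 0h and 4h in shDnmt3a1 (0.0631) and between hairpins at 4h (0.0667). The main tests did not use this pairing. With a block for the replicate number no call of a member's level changed. The edgeR adjusted p of Homer1 between hairpins was then lower at both times.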

Additional observations from a re-analysis of the deposited data

Results flagged for a closer look

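In 56 groups of 4 values (levels, effective lengths and shares of the members), 2 held a library far from the other 3, with a gap to its neighbour above Dixon's 95% critical share of the whole range. Chance marks about 1 in 20 such groups. Both were in replicate 1 of shControl with bicuculline. Arc stood at 1080 CPM there, where the median of the group was 645 CPM and the gap was 0.874 of the range. Homer3 stood at 17.6 CPM, the lowest of its group, where the median was 24.6 CPM and the gap was 0.926 of the range. Without that library the log2 change of Arc with bicuculline in shControl was 5.40 and was still called.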

How the results depend on the processing

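The bicuculline calls of Arc, Homer1, Plk2 and Plk3 in both hairpins, and the absence of calls for the 6 members between hairpins at 0h and for the interaction, held under every alternative run, with 4, 4, 0 and 0 members called each time, except that at the adjusted p alone Homer2 passed in shDnmt3a1. The count of members called between hairpins at 4h, 1, was 0 with only the groups compared and with limma on log2(TPM + 1) or log2(TPM + 0.1), 2 at the adjusted p alone, and 0 to 1 when each library was left out. The block for the replicate number changed no call of a member's level in any comparison. Of the fold changes, only small ones changed sign. Arc between hairpins at 4h was -0.019 with library sizes only, -0.034 with log2(TPM + 1) and -0.035 with log2(TPM + 0.1), where the Homer2 interaction was 0.010 and 0.0094. With each library left out, Arc at 4h ranged from -0.059 to 0.29, Plk2 at 4h from -0.18 to 0.016, Homer2 at 0h from -0.042 to 0.030, and the interactions of Homer3 from -0.048 to 0.12 and of Plk2 from -0.075 to 0.13. For effective length, 3 members were called in shDnmt3a1 with bicuculline but 1 with single-transcript centring. By exact permutation of each member alone, unadjusted, 3 members were under 0.05 with bicuculline in shControl and 3 between hairpins at 4h. They were Arc, Homer1 and Plk3 both times. With single-transcript centring the permutation p of Arc and Plk3 rose to 0.543 and 0.8 with bicuculline and to 0.571 and 0.0857 at 4h. Homer1 stayed at 0.0286 in both, the p that any groups without overlap reach. The replicate block gave 1 member at 4h, Homer1 (0.06, limma adjusted p = 0.0229). The Homer1 share of Homer counts in place of TPM was 42.8% and 47.7% at 0h in shControl and shDnmt3a1 and 92.7% at 4h in shDnmt3a1, and without each library the shares moved by less than 1 SD. Library sizes only shifted the median log2 change of all genes to -0.15 and -0.16 with bicuculline, and the share of calls that were lower in shControl rose from 50.8% to 69.0%. TPM values keep no depth, and effective lengths rest on the annotated transcripts.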
